A study of Mus musculus with 24 samples.

Results

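The 4 late 2-cell (L2C) libraries of mouse embryos targeted at Ttf1 were set against the 4 L2C libraries targeted at Zfp622, chosen by their sample titles from the 24 libraries of the series. Embryos were of the hybrid strain B6D2F1, from eggs of superovulated females 3 to 4 weeks old, and each library pooled 10 embryos. For each knockout, zygotes received Cas9 protein at 100 ng per microlitre with 3 guide RNAs at 50 ng per microlitre each, by injection into the cytoplasm. Both groups therefore share Cas9 injection and differ in the targeted gene. The 4 wild-type L2C libraries enter the fit for its estimate of spread and are given as a reference level; NC in their titles has no explanation in the labels, and it is not stated whether those zygotes were injected. The guide sequences were not used here, and a pool of 10 injected embryos can hold cells with different alleles.

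Both targets belong to the making of ribosomes. Ttf1 encodes the factor that binds terminator elements of the ribosomal RNA genes and ends transcription by RNA polymerase I. Zfp622 encodes a zinc finger protein whose yeast homologue acts in the cytoplasm on the last steps of large ribosomal subunit maturation. The late 2-cell stage follows the main activation of the mouse embryonic genome, when ribosomal RNA transcription resumes and oocyte ribosomes are still in use. The comparison asks what separates loss of an early, nucleolar step from loss of a late, cytoplasmic step at this stage.

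The Ttf1 knockout libraries held 10632541 to 11893566 counted read pairs and the Zfp622 knockout libraries 12135924 to 13528954, so that each Zfp622 knockout library was deeper than each Ttf1 knockout library. All Ttf1 knockout libraries carry lane 1 in their alignment names and all Zfp622 knockout and wild-type libraries lane 2; lane and target cannot be told apart in any result below. Transcripts of the 2-cell stage, which check the labelled stage, summed to between 7520 and 8557 CPM (counts scaled to library size, with TMM factors) in the Ttf1 knockout and between 7649 and 10100 in the Zfp622 knockout. Mitochondrial genes took 6.25% ± 0.58 (SD, n = 4) and 6.13% ± 0.53 of counts (difference 0.118 percentage points, two-sided exact permutation p = 0.771). The sum over 33 cumulus and granulosa markers was 73.7 to 90.1 CPM in the Ttf1 knockout and 75.8 to 85.6 in the Zfp622 knockout, with Btc and Pgr at 0 in the 12 L2C libraries. Sperm markers summed to 69.5 to 77.7 and 69.3 to 80.4 CPM, with Smcp and Prm3 at 0, and blood markers to 18.1 to 32.7 and 17.1 to 26.5 CPM, with S100a8, Tyrobp, Hbb-bs and Adgre1 at 0.

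Few single genes separated the knockouts. Of 16770 genes tested, 6 passed in edgeR at an adjusted p of at most 0.05 (0.0358%), 3 higher (0.0179%) and 3 lower (0.0179%) in the Ttf1 knockout. Besides the targets themselves, Sp3os and Rps21, both on chromosome 2, were lower in the Ttf1 knockout, and the predicted gene Gm10697 and the processed pseudogene Gm2423 were higher. At an unadjusted p under 0.05 there were 1362 genes (8.12%), 679 higher (4.05%) and 683 lower (4.07%). All 4 Ttf1 knockout libraries lay above all 4 Zfp622 knockout libraries for 375 genes (2.24%) and below them for 405 (2.42%). DESeq2 called 75 of 11889 genes (0.631%), 27 higher (0.227%) and 48 lower (0.404%), and these held the 6 of edgeR.

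**Figure D1:**
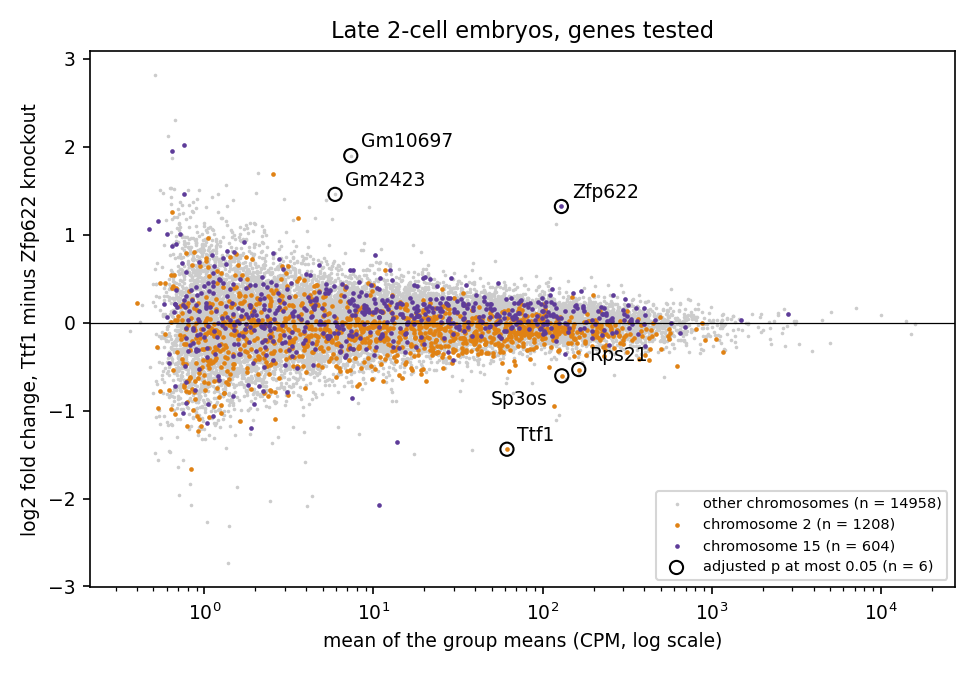
Log2 fold change, Ttf1 minus Zfp622 knockout, against the mean CPM of the knockout groups (log axis) for 16770 genes, 1 point a gene, with chromosomes 2 and 15 coloured. The 6 circled genes passed in edgeR; the chromosome 2 points lie more often below 0 and those of chromosome 15 more often above it.

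The targets had opposite levels. Ttf1 (ENSMUSG00000026803, chromosome 2, 29060262 to 29087656, plus strand, GRCm38) stood at 32.8, 27.5, 38.9 and 33.5 CPM in Ttf1 knockout libraries 1 to 4 and at 84.1, 94.5, 93.2 and 88.0 CPM in Zfp622 knockout libraries 1 to 4. The groups did not overlap, and the Zfp622 knockout lay in the range of wild type, 83.3 to 94.7 CPM. The difference was -1.44 on the log2 scale (SE 0.11, edgeR adjusted p = 3.59e-07).

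Zfp622 (ENSMUSG00000052253, chromosome 15, 25984366 to 25998481, plus strand) stood at 162, 171, 195 and 209 CPM in the Ttf1 knockout and at 63.7, 105.5, 52.5 and 73.9 CPM in the Zfp622 knockout. Library 2 of the Zfp622 knockout kept the most transcript, and no library of that group reached the Ttf1 knockout. The difference was 1.32 (SE 0.16, edgeR adjusted p = 0.00595). It did not pass without Zfp622 knockout library 4. Transcript left after Cas9 cutting does not measure the protein, and in pooled embryos fewer cells with a transcript and less of it per cell cannot be told apart.

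Rps21 encodes a protein of the small ribosomal subunit and lies on chromosome 2 distal to Ttf1. Its level was 146, 126, 136 and 127 CPM in the Ttf1 knockout and 184, 184, 194 and 212 in the Zfp622 knockout. The groups did not overlap, and wild type ran from 178 to 239 CPM. The log2 difference was -0.53 (SE 0.09, edgeR adjusted p = 0.0355). The call was lost under 10 of 17 alternatives, where the adjusted p reached 0.194, and held without Zfp622 knockout library 2 alone among the fits that leave out a knockout library.

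Sp3os, a noncoding RNA transcribed away from the start of the transcription factor gene Sp3, stood at 103.1, 102.1, 104.97 and 101.99 CPM in the Ttf1 knockout and at 133, 173, 169 and 152 in the Zfp622 knockout. The Ttf1 knockout libraries were close together and below each Zfp622 knockout library; wild type reached from 159 to 228 CPM. The log2 difference was -0.60 (SE 0.10, edgeR adjusted p = 0.0355), against -0.09 (adjusted p = 0.89) for Sp3. This call too was lost under 10 of 17 alternatives, with an adjusted p of up to 0.154, and among the fits that leave out a knockout library it held without Zfp622 knockout library 1 alone. Their gene spans overlap on opposite strands and the counting used no strand, so reads in the shared stretch cannot be assigned to either.

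Gm2423, on chromosome 13, had 8.96, 8.14, 8.10 and 9.60 CPM in the Ttf1 knockout and 4.06, 3.61, 2.34 and 2.61 in the Zfp622 knockout. Gm10697, on chromosome 3, had 13.15, 12.01, 8.79 and 12.4 CPM against 4.65, 4.28, 1.78 and 1.66. Neither pair of groups overlapped, and the log2 differences were 1.46 (SE 0.23) and 1.90 (SE 0.30), with edgeR adjusted p = 0.0232 for both. Their calls were lost under 6 and 5 of 17 alternatives, with an adjusted p of up to 0.136; both were lost without Ttf1 knockout library 1, 2 or 4 and without Zfp622 knockout library 3 or 4. These genes fall outside the rule for named genes and were named after their values were seen; counts of a processed pseudogene or predicted gene may include reads of near-identical copies.

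**Figure D2:**
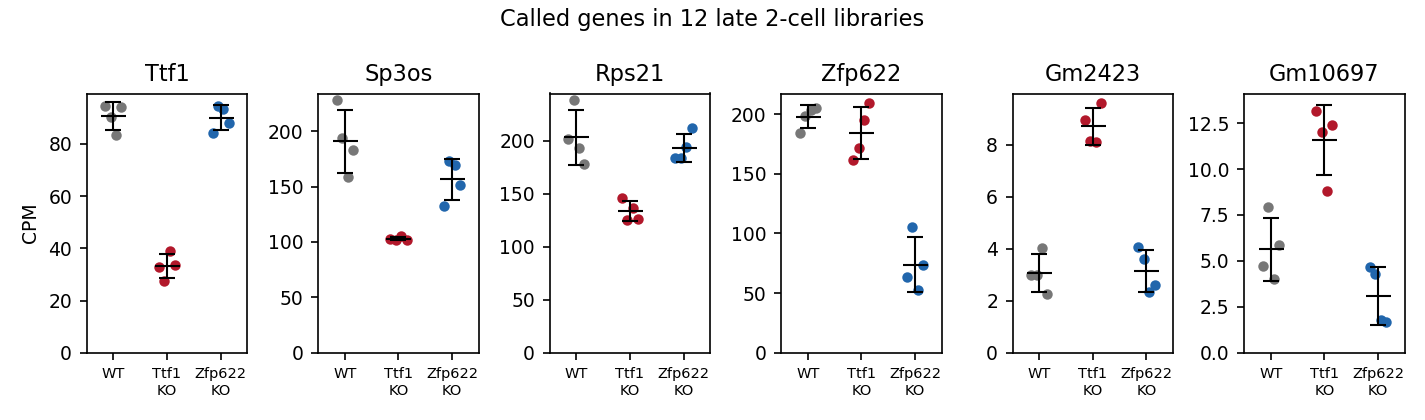
CPM (linear axes from 0) of the 6 genes that passed between the knockouts, in wild-type, Ttf1 knockout and Zfp622 knockout L2C libraries; points are libraries 1 to 4 from left to right, and bars show mean and SD. In each panel the 4 Ttf1 knockout points lie apart from the 4 Zfp622 knockout points.

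Other genes with small p-values, named after the values were seen, lay on chromosome 2 and elsewhere. Eif2s2, a subunit of the initiation factor that brings the initiator tRNA, stood at 562, 503, 559.6 and 452 CPM in the Ttf1 knockout and 683, 757, 723 and 757 in the Zfp622 knockout (-0.49, SE 0.09, edgeR adjusted p = 0.0659). Its groups did not overlap, and it did not pass the threshold. Ppig, a cyclophilin of nuclear speckles on the same chromosome, was at 366 ± 39.2 against 490.4 ± 50.7 CPM (-0.42, adjusted p = 0.156).

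Higher in the Ttf1 knockout without passing were Pitpnb, a phosphatidylinositol transfer protein (0.52, edgeR adjusted p = 0.134), Atp6ap1, an accessory subunit of the vacuolar proton pump on the X chromosome (0.71, adjusted p = 0.134), Memo1 (0.35), the small GTPase Rab20 (0.38) and the ubiquitin ligase gene Rnf44 (0.51). Pitpnb reached 208 to 257 CPM in the Ttf1 knockout, 130 to 182 in the Zfp622 knockout and 112 to 148 in wild type. Magoh, a core protein of the exon junction complex, was at 786 ± 36 against 979 ± 38 CPM (-0.32, adjusted p = 0.183). The X-linked gene Atp6ap1 is set beside the sex of the pools: Xist had 13.0, 24.2, 12.4 and 7.33 CPM in the Ttf1 knockout and 9.38, 9.40, 8.73 and 4.43 in the Zfp622 knockout, and 8 Y-linked genes summed to 62.0 to 97.0 and 86.3 to 106.8 CPM. Both ranges overlapped between groups, and the part of pool sex in these differences was not tested.

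Around the targets no other gene passed. Of 9 tested neighbours within 500 kb of Ttf1, 0 were called by edgeR, 2 had an unadjusted p under 0.05 and DESeq2 called 1. The shares over all genes were 8.12% at an unadjusted p under 0.05 and 0.631% of 11889 called by DESeq2. Cfap77, a cilium gene, was at 1.68 ± 0.73 against 3.57 ± 0.45 CPM (-1.10, edgeR adjusted p = 0.236). Ddx31, a nucleolar helicase, was at -0.23, Tsc1, an inhibitor of mTOR signalling, at -0.16, the RNA polymerase III factor genes Gtf3c5 and Gtf3c4 at -0.14 and -0.09, and Med27, a Mediator subunit, at 0.01 on the log2 scale. Near Zfp622 the motor protein gene Myo10 was the 1 gene tested, at 24.6 ± 2.74 against 27.8 ± 5.14 CPM (-0.18, adjusted p = 0.808).

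Chromosome 2 as a whole was lower in 3 of 4 Ttf1 knockout libraries. Distal to Ttf1, 723 of 1015 tested genes had a log2 difference below 0, against 50.1% of all genes tested, with a median of -0.11 against -0.00062 for all genes. At an unadjusted p under 0.05, 118 were lower (11.6% against 4.07%) and 8 higher (0.788% against 4.05%). DESeq2 called 10 lower and 0 higher, where it called 0.404% lower and 0.227% higher of 11889 genes. Without the ribosomal protein genes the median was -0.11 over 1012 genes.

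Per library, the median of the distal segment relative to the autosomes other than 2 and 15 was -0.067, -0.077, 0.065 and -0.207 on the log2 scale in Ttf1 knockout libraries 1 to 4, and 0.022, 0.027, 0.082 and 0.037 in the Zfp622 knockout. Library 4 was the lowest and library 3 lay among the Zfp622 knockout libraries, so that the groups overlapped. The other 17 autosomes ran from -0.055 to 0.049 in single knockout libraries. The group difference was -0.113 (two-sided exact permutation p = 0.114, adjusted over 4 segments 0.152; the smallest p of 4 against 4 is 0.0286). It was -0.068 without Ttf1 knockout library 4 and -0.159 without Ttf1 knockout library 3.

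The segment proximal to Ttf1 gave -0.082, -0.092, 0.050 and -0.085 in the Ttf1 knockout and 0.035, -0.003, 0.103 and 0.019 in the Zfp622 knockout over 192 genes. Here too library 3 stood apart from the other 3 Ttf1 knockout libraries, and the difference of -0.091 had the same exact permutation p = 0.114. In bins of 20 Mb, library 4 ran from -0.156 to -0.258 along the distal segment, and at -0.091 and -0.076 proximal to Ttf1. Libraries 1 and 2 were below 0 in all 10 bins on both sides of the gene.

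**Figure D3:**
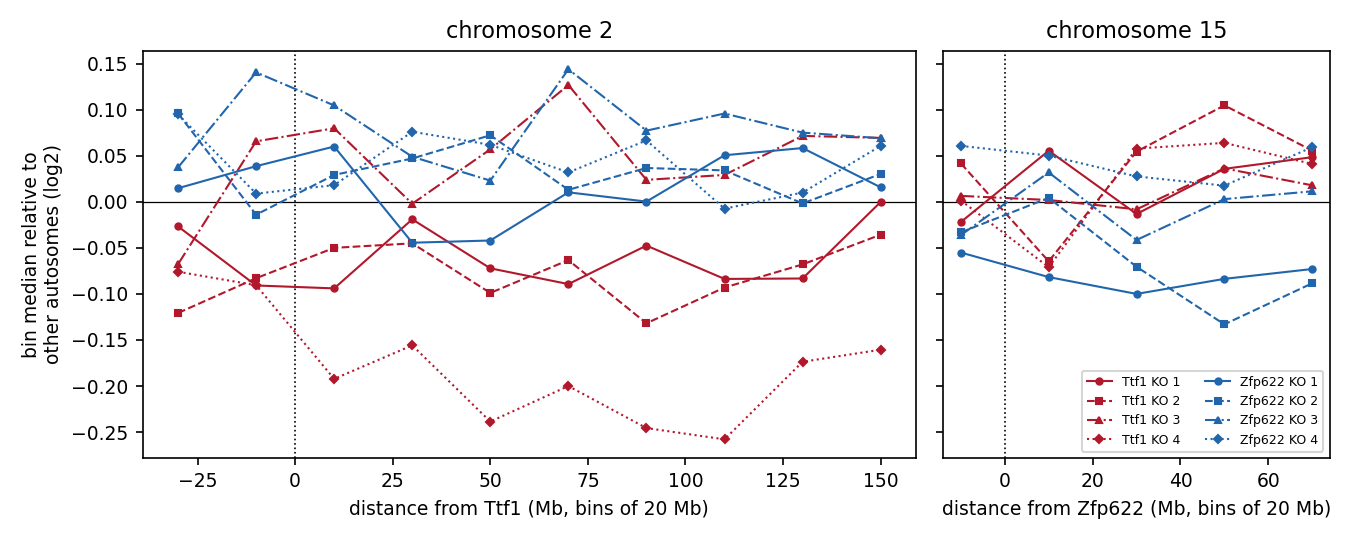
Median log2 level of the genes in each 20 Mb bin, relative to the autosomes other than 2 and 15, against distance from Ttf1 on chromosome 2 and from Zfp622 on chromosome 15; each line is 1 L2C library. Ttf1 knockout library 4 drops below -0.15 past Ttf1, and Zfp622 knockout libraries 1 and 2 lie below 0 from 20 Mb past Zfp622 onward.

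On chromosome 15 the difference ran the other way. Distal to Zfp622, 360 of 547 genes were higher in the Ttf1 knockout, with a median of 0.09. An unadjusted p under 0.05 went with a higher level for 45 (8.23% against 4.05%) and a lower level for 10 (1.83% against 4.07%). DESeq2 called 1 higher and 2 lower, where it called 0.227% higher and 0.404% lower of 11889 genes. Library medians were 0.043, 0.067, 0.019 and 0.036 in the Ttf1 knockout and -0.085, -0.094, 0.011 and 0.036 in the Zfp622 knockout. Libraries 1 and 2 of the Zfp622 knockout were low, library 3 lay just below the Ttf1 knockout range and library 4 within it. Wild type ran from -0.006 to 0.013, below each Ttf1 knockout library and above Zfp622 knockout libraries 1 and 2. Library 3 of the Zfp622 knockout lay within the wild-type range and library 4 above it. The difference was 0.074 (two-sided exact permutation p = 0.0857, adjusted 0.152). Proximal to Zfp622, 56 genes gave a difference of -0.005 (exact permutation p = 0.886).

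The morula libraries of the same knockouts, which come from other embryos, were sequenced in the same split of lanes. There the distal chromosome 2 median was -0.008, -0.207, -0.138 and -0.160 in the Ttf1 knockout and 0.041, 0.067, 0.022 and 0.020 in the Zfp622 knockout. The groups did not overlap (difference -0.166, two-sided exact permutation p = 0.0286, which is the smallest possible; adjusted 0.114). Wild-type morulae stood at 0.081 to 0.100 on distal chromosome 2, above each library of either knockout. Distal chromosome 15 differed by 0.033 between the knockouts (exact permutation p = 0.143). Wild type stood at 0.014 to 0.067 on that segment, again above each knockout library.

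**Figure D4:**
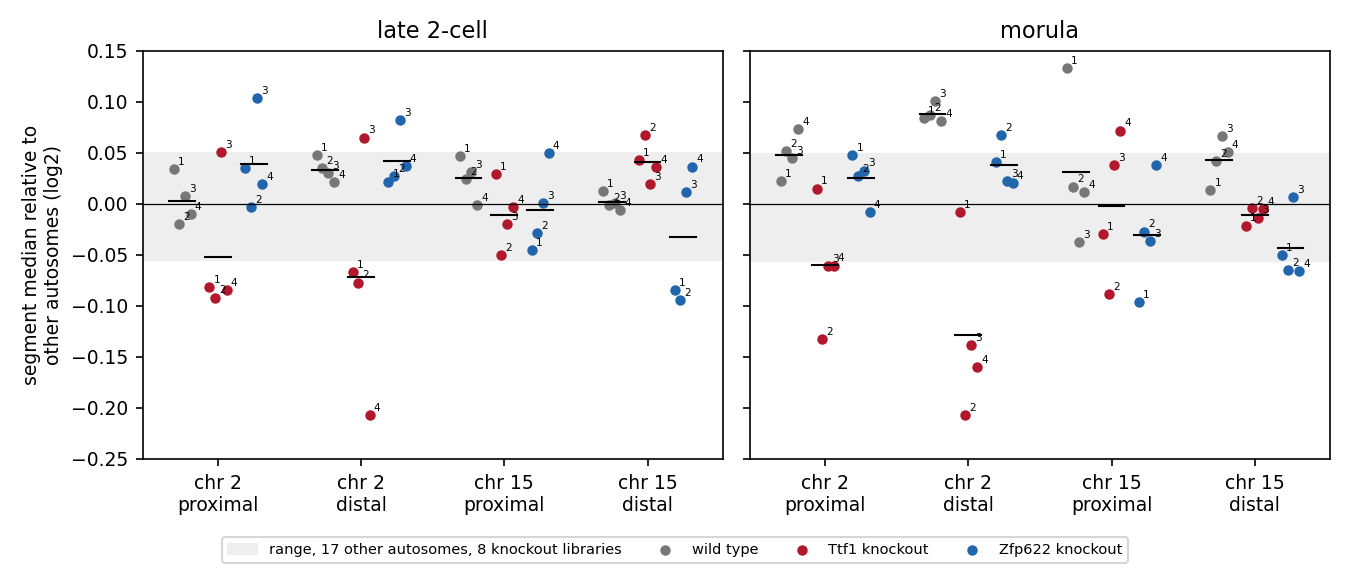
Segment medians relative to the autosomes other than 2 and 15 (log2) in L2C and morula libraries, with the library number at each point and the group mean as a line; the grey band spans the 17 other autosomes, -0.055 to 0.049 at L2C. On distal chromosome 2 at L2C, Ttf1 knockout libraries 1, 2 and 4 lie below the band and library 3 above it.

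Transcripts of cytosolic ribosomal proteins, the structural proteins of the 2 ribosomal subunits, were lower as a group in the Ttf1 knockout. Of 80 members, all tested, 72 had a log2 difference below 0, with a median of -0.22 against -0.00062 for all genes. Rps21 was the 1 member that passed in edgeR. At an unadjusted p under 0.05, 47 were lower (58.8% against 4.07%) and 0 higher. The libraries did not overlap for 33, all lower (41.2% against 2.42%). DESeq2 called 12 lower, where it called 0.404% of 11889 genes lower. The list was chosen with earlier results of these libraries known, so its direction is not independent evidence.

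Their summed level was 25625, 26127, 24281 and 24349 CPM in the Ttf1 knockout and 28849, 27324, 29510 and 29501 CPM in the Zfp622 knockout. Each Ttf1 knockout library lay below each Zfp622 knockout library, and wild type, at 27356 to 30773 CPM, covered the Zfp622 range except at its lower end. Leaving out single knockout libraries moved the median of the list between -0.181 and -0.246.

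Rpl35, of the large subunit, stood at 88.4, 94.6, 98.7 and 78.7 CPM in the Ttf1 knockout against 126, 121, 133 and 131 in the Zfp622 knockout (-0.50, SE 0.10, edgeR adjusted p = 0.13). Rpl7a stood at 143, 138, 136 and 153 against 197, 176, 178 and 167 CPM (-0.33, adjusted p = 0.198). Neither pair of groups overlapped. For Rpl7a, wild type ran from 139.5 to 155 CPM, overlapping the Ttf1 knockout and below each Zfp622 knockout library; for Rps21 and Rpl35 it overlapped the Zfp622 knockout.

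Rps21, Rpl35, Rpl7a and Rpl12 are the 4 members on chromosome 2, with a median of -0.42, and the 76 elsewhere had a median of -0.21. Among those elsewhere, small p-values belonged to Rpl23 on chromosome 11 (463 ± 20.1 against 571 ± 14.8 CPM, -0.30), Rps26 on chromosome 10 (646 ± 33.3 against 817 ± 52.8, -0.34), Rps3a1 on chromosome 3 (-0.33) and Rps7 on chromosome 12 (232 ± 8.53 against 297 ± 6.33, -0.36). All 4 had libraries that did not overlap, and edgeR adjusted p from 0.156 to 0.198. The 4 members on chromosome 15 had a median of 0.01: Rpl3 was at 0.20, Rpl30 at 0.02, Rpl8 at 0.01 and Rpl37 at -0.26.

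The median difference was also lower in the class of genes with the fewest exonic bases. These bases cover all annotated exons of a gene and are not the length of a transcript. Among 397 other protein-coding genes with at most 1000 exonic bases the median was -0.11, and it was -0.14 among the 53 of these with at least 100 CPM. It was -0.01 from 1000 to 2000 bases, 0.03 in the classes up to 4000 and 6000 bases and 0.01 above. Processed pseudogenes, many of which copy ribosomal protein genes, had a median of -0.12 over 1124 genes. The 11 ribosomal protein genes of at most 1000 bases had a median of -0.29. The part of exonic length, transcript length, depth and lane in the ribosomal protein result was not tested.

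Messenger RNAs of ribosomal proteins are known to begin with a run of pyrimidines, through which mTOR signalling controls their translation, and such runs can be sought at their start sites. Promoter windows were read from RefSeq (GRCm38.p6), 70 bases before to 30 after the annotated start, for members with small p-values; 4 are shown, the 3 chromosome 2 members described above and Rps7, which lies elsewhere and has a shorter run. The longest run of C and T is in capitals, or the first of them where, as in Rps7, 2 runs are equally long. The windows are chr2:180257379-180257478 (plus strand) for Rps21, for the second of its annotated starts, chr2:39005102-39005201 (minus strand) for Rpl35, chr2:26910737-26910836 (plus strand) for Rpl7a and chr12:28635924-28636023 (minus strand) for Rps7.
Rps21: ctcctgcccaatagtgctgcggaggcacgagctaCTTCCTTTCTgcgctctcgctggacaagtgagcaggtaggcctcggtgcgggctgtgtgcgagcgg
Rpl35: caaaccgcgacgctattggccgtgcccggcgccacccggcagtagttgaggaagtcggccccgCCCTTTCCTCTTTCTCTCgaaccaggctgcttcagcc
Rpl7a: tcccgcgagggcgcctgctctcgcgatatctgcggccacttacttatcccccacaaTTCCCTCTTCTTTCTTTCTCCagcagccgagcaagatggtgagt
Rps7: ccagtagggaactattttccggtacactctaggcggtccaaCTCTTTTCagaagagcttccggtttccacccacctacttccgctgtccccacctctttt
The runs are 10, 18, 21 and 8 bases long and begin at -36, -7, -14 and -29 bases from the annotated start. Those of Rpl35 and Rpl7a span that start, and those of Rps21 and Rps7 lie wholly before it. The window at the first annotated start of Rps21 has a longest run of 7 bases, which begins at -2 and spans that start. Those of Rps26, Rpl23 and Rps3a1 have 11, 6 and 5, and the run of Rps26 begins at -61. Long runs are thus not shared by all members with small p-values. Runs of at least 10 bases of C or T were sought on the sense strand. They were found in 33 of 59 ribosomal protein genes with a promoter entry (55.9%) and in 2218 of 10966 tested genes with one (20.2%). On either strand the shares were 62.7% and 37.1%. A run in the window is a description of the letters there.

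At morula the same list had a median of 0.09 between these knockouts, with 0 of 80 called by edgeR, 9 higher (6.92% of all genes) and 2 lower (6.26%) at an unadjusted p under 0.05. In the fit of all 24 libraries, the change in this difference from L2C to morula was positive at an unadjusted p under 0.05 for 49 of 80 members, against 6.26% of 18864 genes, and negative for 1, against 4.56%. After adjustment 0 of 80 members passed in edgeR, where 1 gene of 18864 did (0.0053%). Rps21 was at -0.53 at L2C and -0.00 at morula (interaction adjusted p = 0.114).

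The rest of the ribosome pathway showed no member past the threshold other than the targets. Among 26 tested genes of RNA polymerase I transcription other than Ttf1, 19 were below 0 (median -0.07). An unadjusted p under 0.05 was reached by 2, both lower, where 4.07% of all genes tested were lower at that level. By edgeR or DESeq2, 0 were called. Without Ttf1 their summed level was 5607 to 6038 CPM in the Ttf1 knockout and 6026 to 6443 in the Zfp622 knockout, with library 2 of the former inside the range of the latter. Top1, topoisomerase I, on chromosome 2, was at 354 against 456 CPM (-0.37, edgeR adjusted p = 0.209), and Rrn3, the initiation factor that recruits the polymerase, at 530.01 against 582 CPM (-0.14, adjusted p = 0.689).

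Among 75 tested factors of large subunit assembly, 11 were lower (14.7%) and 5 higher (6.67%) at an unadjusted p under 0.05. Over all genes tested the shares were 4.07% lower and 4.05% higher. The median was -0.04, and the 1 called member is Zfp622. Nop10, a protein of box H/ACA particles on chromosome 2, was at -0.30, and Bop1, of the PeBoW complex on chromosome 15, at 0.28, on the sides of their chromosomes. For small subunit assembly, 6 of 65 were higher by that measure and 4 lower (median 0.02), with 0 called by edgeR and DESeq2: Esf1, on chromosome 2, was at -0.38, Rrp7a, on chromosome 15, at 0.24, and Tbl3, of the processome, at 0.28. Host genes of small nucleolar RNAs had a median of -0.17 over 21 genes, with 18 below 0; an unadjusted p under 0.05 went with a lower level for 2 and a higher level for 1, and 0 were called by either tool. Of 48 translation factors, 24 were below and 24 above 0. An unadjusted p under 0.05 went with a lower level for 3 and a higher level for 1. In this list edgeR called 0 and DESeq2 called Eif2s2 lower, where DESeq2 called 0.404% of 11889 genes lower.

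Zinc finger genes named Zfp with a number, a group looked at after values were seen and many of them encoding DNA-binding repressors, lay on the higher side. Without Zfp622, 308 were tested, with a median of 0.12; 211 were above 0, and 35 were higher (11.4% against 4.05%) and 5 lower (1.62%) at an unadjusted p under 0.05. None passed in edgeR, and DESeq2 called 4, all higher, where it called 0.227% of 11889 genes higher. At morula their median was 0.03 over 309 genes, with 1 called higher and 0 lower by edgeR, where it called 0.128% of 14865 genes higher.

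Zfp978 stood at 118, 104.4, 115 and 96.6 CPM in the Ttf1 knockout and at 68.1, 77.01, 75.5 and 80.1 in the Zfp622 knockout, with wild type at 65.5 to 91.7 (0.53, SE 0.11, edgeR adjusted p = 0.122). Zfp141 stood at 37.3, 54.3, 48.7 and 51.5 against 32.6, 21.3, 34.0 and 31.7 CPM, with wild type at 27.0 to 30.4 (0.68, SE 0.15, adjusted p = 0.156). In both genes the Ttf1 knockout libraries were all the higher ones and did not overlap with either other group. Zfp930, Zfp950 and Zfp977 were at 0.43, 0.53 and 0.42.

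**Figure D5:**
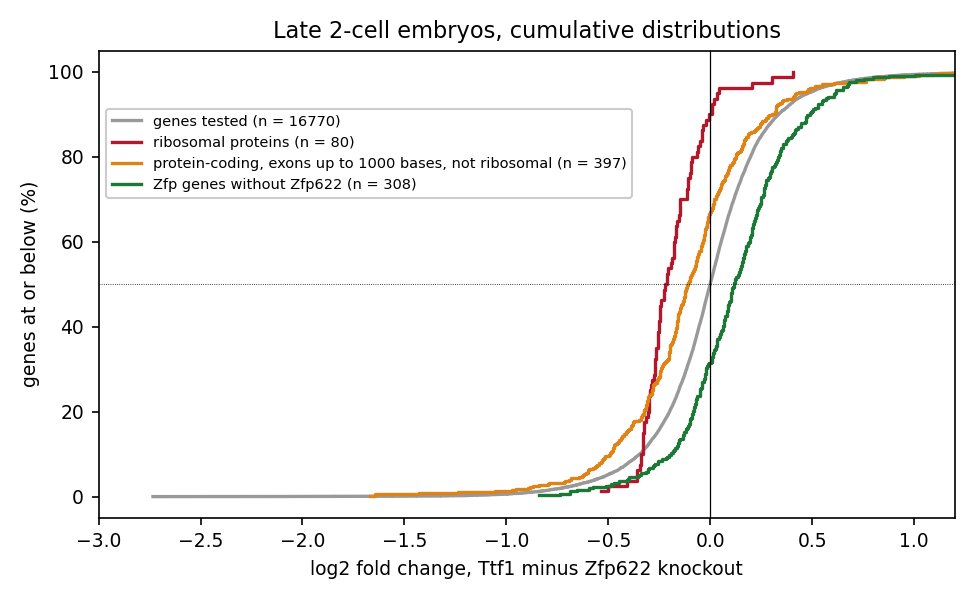
Cumulative share of genes (percent) by log2 fold change, Ttf1 minus Zfp622 knockout at L2C, for 16770 genes tested, 80 ribosomal protein genes, 397 other protein-coding genes of at most 1000 exonic bases and 308 Zfp genes. The curves cross 50% at -0.22 for ribosomal proteins, -0.11 for short genes, -0.00062 for all genes and 0.12 for Zfp genes.

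Lists of stress and cell death held 0 called genes in edgeR and DESeq2. At an unadjusted p under 0.05, 4.05% of all genes tested were higher and 4.07% lower. Of 43 tested p53 targets, 1 had an unadjusted p under 0.05, Rps27l, at 537 against 637 CPM; Cdkn1a, the cell cycle inhibitor, had 81.1 ± 25.3 against 79.4 ± 21.3 CPM (edgeR adjusted p = 0.99), Mdm2, the p53 ligase, 153 ± 4.91 against 145 ± 11.4 (adjusted p = 0.868), Ccng1 29.2 ± 5.42 against 36.7 ± 8.28 (adjusted p = 0.643) and Trp53inp1 292 ± 23.9 against 264 ± 16.9 (adjusted p = 0.691). Among 26 genes of the BCL2 family and caspases 5 were higher by that measure and 2 lower, among them Bok at 5.14 against 2.99 CPM and Casp6 at 13.9 against 20.5. Of 33 integrated stress response genes, 1 was higher and 0 lower.

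In metabolism, 26 tested genes of sterol synthesis had a median of 0.11 and a summed level of 1328 to 1399 CPM in the Ttf1 knockout and 1233 to 1289 in the Zfp622 knockout, without overlap. Lss, lanosterol synthase, was at 42.7 against 35.3 CPM (0.27). An unadjusted p under 0.05 was reached by 4 of these genes, all higher (15.4% against 4.05% of all genes tested), and 0 were called by either tool. The glycolysis list, which also holds the pyruvate dehydrogenase gene Pdhb, had a median of 0.12 over 21 genes. Its 1 higher member was Pdhb, at 482 against 418 CPM. Nuclear genes of oxidative phosphorylation had 8 lower (10.5% against 4.07%) and 1 higher (1.32% against 4.05%) of 76 at that level (median -0.06). DESeq2 called 2 lower, against 0.404% of 11889 genes. Cox6c was at 119 against 152 CPM and Ndufb2 at 22.7 against 31.2.

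Among 66 genes of mitosis and the cell cycle 9 were lower (13.6%) and 3 higher (4.55%) at an unadjusted p under 0.05. The shares over all genes tested were 4.07% and 4.05%. The median was 0.01, with 0 called by edgeR and 1 lower by DESeq2, which called 0.404% of 11889 genes lower. The smallest p-values were those of Spc25, a kinetochore protein (280.1 against 352 CPM, -0.33), Gmnn, the inhibitor of replication licensing (769 against 947, -0.30), and Tpx2, a spindle assembly factor (389 against 478, -0.30), of which Spc25 and Tpx2 lie on chromosome 2. Oocyte transcripts had a median of -0.07 over 72, with 5 lower and 1 higher; Dppa3, a maternal factor that protects the methylation of the zygotic genome, was at 3460.01 against 4331 CPM (-0.32, edgeR adjusted p = 0.236). Transcripts of the 2-cell stage had 2 lower and 0 higher of 46, and pluripotency genes 1 lower and 0 higher of 28. Mitochondrial ribosomal proteins had 6 lower and 0 higher of 76 (median -0.04). The lists of the RNA exosome, endoplasmic reticulum stress, chaperones, proteasome, mitochondrial genome, trophectoderm, primitive endoderm, linker histones and interferon response had medians from -0.11 to 0.09. In these lists edgeR called 0 and DESeq2 called 1, higher, in the mitochondrial genome. DESeq2 called 0.227% of 11889 genes higher.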

How the data were processed

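Polyadenylated RNA of pooled embryos was amplified with template switching and sequenced as pairs of 150 bases, per the labels' protocols. The deposited values are raw counts of read pairs per gene: featureCounts 2.0.1 assigned them to exons of Ensembl annotation on GRCm38 without strand, multimapping or overlap options, per the file headers, after HISAT2 2.2.1, per the submitters' processing notes. Symbols were matched for 55144 of 55471 identifiers.

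Groups came from the titles, because genotype and strain labels count upward through the Zfp622 libraries. Nothing says which embryos came from which matings, so p-values measure the spread between pools. Genes were kept by filterByExpr, scaled by TMM and fitted with robust quasi-likelihood models of edgeR 4.0.16 in R 4.3.3 on 12 L2C libraries; the contrast was Ttf1 minus Zfp622 knockout, with calls at 0.05 after Benjamini-Hochberg adjustment. Log2 CPM used a prior count of 2. Segment medians took each gene centred over libraries, less the median of the autosomes other than 2 and 15, and were compared by exact permutation. DESeq2 1.42.0, other scalings, filters, library sets and the replicate block were alternatives; the procedure was tested on simulated data. CPM are not set against length, so levels were not compared between genes.

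The rule named both targets; the 12 highest and 12 lowest called genes by fold with non-overlapping libraries and at least 5 CPM, leaving out predicted genes, clones and pseudogenes; up to 4 called members of each of 30 lists; the 4 called genes of smallest p on chromosomes 2 and 15; neighbours within 500 kb; and 4 p53 effectors. Some genes that the rule names are not reported here. Members and lists were chosen with earlier results of these data known. Total counts limit precision for genes of a few CPM.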

Additional observations from a re-analysis of the deposited data

Results flagged for a closer look

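Of 156 groups of 4 libraries looked at, 7 held a library far from the other 3, where chance flags about 1 in 20. Rps7 was highest in wild-type library 2, at 382 CPM against 287 to 298 in the others. Xist was lowest in Zfp622 knockout library 4, at 4.43 CPM. Rnf44 was lowest in Zfp622 knockout library 2, at 45.7 CPM. Zfp930 was lowest in Ttf1 knockout library 4, at 76.8 CPM. Zfp950 was lowest in Zfp622 knockout library 3, at 20.9 CPM. Mdm2 was lowest in Ttf1 knockout library 1, at 146 CPM. The median of chromosome 2 proximal to Ttf1 was highest in Ttf1 knockout library 3, at 0.0504, against values between -0.0919 and -0.0815 in the other 3.

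The difference between the knockouts changed between the stages for 1 of 18864 genes (0.0053%), a gene without a symbol on an unplaced scaffold, ENSMUSG00000079808, whose interaction was 0.65 on the log2 scale (edgeR adjusted p = 0.0275): it was at 1055 against 1220 CPM of total counts at L2C (Ttf1 against Zfp622 knockout) and at 1070 against 819 at morula. At an unadjusted p under 0.05 there were 2041 such genes.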

How the results depend on the processing

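Ttf1 passed under all 17 alternatives of single genes and Zfp622 under all but the fit without Zfp622 knockout library 4; Rps21 and Sp3os lost their call under 10 each, Gm2423 under 6 and Gm10697 under 5, and no named gene was called with the opposite sign. Against 6 calls (3 higher, 3 lower), DESeq2 gave 75 (27 and 48), no filter 84 (35 and 49), all 24 libraries 20 (8 and 12), and the replicate block 3, with 1 lower. Centred on group means, same-numbered libraries of the knockouts had correlations from -0.186 to 0.073, and differently numbered ones from -0.219 to 0.228. These values showed no pairing by replicate number, and so few cannot exclude one. Total counts, no robust fit and a log2 fold change of at least 1 each left 1 lower. Without single knockout libraries the calls ran from 1 to 5, with 0 to 3 higher and 1 to 3 lower: 2 without Ttf1 knockout library 1, 2 or 4, 1 without Zfp622 knockout library 4, and 4 without Zfp622 knockout library 3, of which 2 (Ttf1 and Zfp622) were among the 6 and the other 2, Gm21738 and Gm29666, were lower and called in that fit but not in the reported one. Leaving out chromosomes 2 and 15, chosen after seeing the data, left 2, with 0 lower. The causes of these changes were not tested. The stage interaction, 1 gene, gave 154 in DESeq2 and 302 without a filter. The difference proximal to Zfp622, -0.005, was 0.022 as a mean over genes, 0.0028 without ribosomal proteins and 0.00051 with all other autosomal genes as reference, and ran from -0.018 to 0.013 without single libraries; the mitochondrial difference ran from -0.119 to 0.346. The chromosome 2 and distal chromosome 15 differences kept their sign. Without single libraries they ran from -0.159 to -0.068 and from -0.125 to -0.069 distal and proximal to Ttf1. Distal to Zfp622 the range was 0.054 to 0.097. Each group is 4 pools, and depth limits genes of a few CPM.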
